A study of Homo sapiens with 16 samples.

Results

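The genes described here are 10 members of the ETS family of transcription factors: FLI1, ERG, ETS1, ETS2, ETV4, ETV5, ETV6, ELF1, ELK3 and SPI1. They were taken by name, and the reads of each were summed over its transcripts in every library. They are 10 of the 35052 genes that had a transcript in the tables. All 10 passed the low-count filter of the test, FLI1 and ERG only through the late time points at which they are high.

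ETS factors bind DNA through a shared ETS domain that recognises a GGAA core, and members differ in the partners and signals that act on them. In the blood lineages, FLI1 and ERG act with RUNX1, GATA and TAL1 factors in stem cells and megakaryocytes, ETV6 is mainly a repressor needed for normal platelet formation, and SPI1 (PU.1) directs myeloid and B-cell genes and opposes GATA1. ETS1, ETS2 and ELK3 respond to the Ras and ERK pathway, and ETV4 and ETV5, of the PEA3 group, are genes that the repressor CIC holds down until ERK is active.

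K562 is an established human leukaemia cell line with erythroid features. The cells were wild type and were treated with 25 nM phorbol 12-myristate 13-acetate (PMA), an activator of protein kinase C, to bring on a megakaryocyte-like state. RNA was taken before treatment (0 h, the control), in the first hours (0.5 and 1.5 h, then 3 and 6 h) and on later days (24 and 48 h, then 72 h), and the medium was replaced after 24 and 48 h. Each of the 8 time points had 2 libraries of total RNA depleted of ribosomal RNA. The series compares the time points, and here the comparisons ask when each ETS gene changed and whether the change lasted.

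Library totals were 27285773 to 54056289 estimated reads. Whether the 2 libraries of a time point came from separate cultures is not given in the sources used here, so p-values measure only the spread between these libraries, which may be technical. Replicates differed by more than counting noise at all time points (chi-square per gene between 7.73 and 45.4). The 0 h libraries stood apart from each other. The log2 ratio of replicate 1 to replicate 2 at 0 h had a correlation of -0.73 with transcript GC content across genes, which are not independent replicates. The implied fragment length was 199 nt in 0 h replicate 2, outside the ranges of both sets. It was 229 to 248 nt in the other replicate 2 libraries and 210 to 221 nt in the replicate 1 libraries. The log2 fold change at 0.5 h had a correlation with GC content of -0.76, that at 1.5 h -0.43, and those from 3 h on -0.17 to -0.02. Values without a 0 h library are given below for some of the calls that this changes. The members called only without 0 h replicate 1 at 0.5 and 1.5 h are not named.

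ERG, ELK3, ETS2 and ETV6 had an entry in the RefSeq start-site table (GRCh38.p14) whose upstream bases overlap no annotated exon, and these windows are shown because the 4 genes followed 4 different courses: ERG rose from nearly no reads, ELK3 rose in steps from 3 h, ETS2 was higher from 1.5 h and ETV6 was lowest at 6 h. Each line gives the 250 bases before a start site on the gene's own strand, 5′ to 3′. Capitals mark the ETS core GGAA or its reverse complement TTCC and, in ERG, a match to the EGR motif GCGTGGGCG on the other strand, which follows directly on a TTCC.
ERG, chr21:38660668-38660917, minus strand: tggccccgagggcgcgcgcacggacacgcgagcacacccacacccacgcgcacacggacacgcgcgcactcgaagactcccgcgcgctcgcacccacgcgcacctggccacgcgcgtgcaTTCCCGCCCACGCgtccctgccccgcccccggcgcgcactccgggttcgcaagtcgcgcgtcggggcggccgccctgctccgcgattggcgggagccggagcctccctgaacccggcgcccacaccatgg
ELK3, chr12:96194125-96194374, plus strand: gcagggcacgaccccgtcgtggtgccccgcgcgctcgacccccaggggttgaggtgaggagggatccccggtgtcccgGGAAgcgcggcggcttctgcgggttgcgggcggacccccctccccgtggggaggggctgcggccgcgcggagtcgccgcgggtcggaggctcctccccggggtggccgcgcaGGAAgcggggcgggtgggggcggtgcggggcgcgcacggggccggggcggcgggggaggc
ETS2, chr21:38804933-38805182, plus strand: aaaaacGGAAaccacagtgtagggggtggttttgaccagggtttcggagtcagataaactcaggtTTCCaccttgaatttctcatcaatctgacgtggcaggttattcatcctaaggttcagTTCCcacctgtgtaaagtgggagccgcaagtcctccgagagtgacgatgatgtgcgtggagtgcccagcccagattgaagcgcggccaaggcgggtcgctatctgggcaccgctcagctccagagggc
ETV6, chr12:11649424-11649673, plus strand: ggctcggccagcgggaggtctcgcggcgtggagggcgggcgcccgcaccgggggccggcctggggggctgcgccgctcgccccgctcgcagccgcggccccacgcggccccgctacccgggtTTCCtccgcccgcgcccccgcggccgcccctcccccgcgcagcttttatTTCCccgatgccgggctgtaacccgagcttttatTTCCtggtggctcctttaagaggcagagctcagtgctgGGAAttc
The ERG window held 1 ETS core, the ELK3 window 2, the ETS2 window 3 and the ETV6 window 4, on both strands together. Of 34943 start-site windows of this length, 92.7% held at least 1 such core, with a median of 3. The EGR motif was in 0.721% of all windows, and ERG was the member among these 4 that held it. The longer ETS motif CCGGAAG (8.48% of windows; it contains GGAA), the AP-1 motif TGACTCA (4.22%) and the CRE motif TGACGTCA (1.63%) were in none of the 4 windows, and the GATA motif AGATAA (9.19%) was in the ETS2 window only. A match is a description of the letters and not evidence of binding. ELF1 has entries too, some of which overlap no exon, and these are not shown. ERG has further entries that overlap no exon and are not shown. The window from 38584946 held 4 ETS cores, and that from 38498505 held 1 core and 1 GATA motif. Neither held the EGR motif. The ETS2 window printed above ends at 38805182, upstream of the ETS2 transcript with the most reads, which starts at 38805831. The window from 38805679 spans that start, overlaps an ETS2 exon and is not shown. It held 6 ETS cores and no GATA motif. FLI1, ETS1, ETV4, ETV5 and SPI1 have no entry.

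Every member differed among the 8 time points (edgeR quasi-likelihood test over the whole course, adjusted p between 3.02e-12 for ETS1 and 3.43e-03 for ELF1), as did 82.9% of the 17559 genes tested. By 72 h, 7 members were higher than at 0 h (FLI1, ERG, ETS1, ETS2, ETV5, ELF1 and ELK3), 2 were lower (ETV6 and SPI1) and ETV4 was not called. Of all genes tested, 58.6% were called in that comparison, 31.7% higher and 26.9% lower, so 9 called members of 10 stand against a background in which most genes were called. FLI1 and ERG, with 6 and 2 reads over the 0 h libraries, passed the filter only through later time points at which they are high. Against 0 h these 2 genes could be called only higher, so their calls add nothing to the comparison with that share. At 0.5 h no member was called, against 0.171% of genes. At an unadjusted p under 0.05 there was 1 member, SPI1, and DESeq2 called 0. At 1.5 h ETS2 alone was called, higher (17.1% of genes called, 9.05% higher). At 3 h ERG, ETS2 and ELK3 were higher and ETV5 and ETV6 lower, beside 42.0% of genes called, 21.5% higher and 20.5% lower. At 6 h 5 members were higher (ERG, ETS1, ETS2, ELF1 and ELK3) and 3 lower (ETV4, ETV6 and SPI1), beside 57.2% of genes called, 27.8% higher and 29.4% lower. At 24 h 7 were higher (ERG, ETS1, ETS2, ETV4, ETV5, ELF1 and ELK3) and 2 lower (ETV6 and SPI1), where 58.3% of genes were called, 31.7% higher and 26.6% lower. At 48 h FLI1 took the place of ETV4 among the 7 higher, where 54.3% of genes were called, 30.2% higher and 24.1% lower. The median log2 fold change of the 10 members was 0.05 at 6 h and 1.03 at 72 h, beside 0.00 and -0.03 for all genes tested.

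**Figure D1:**
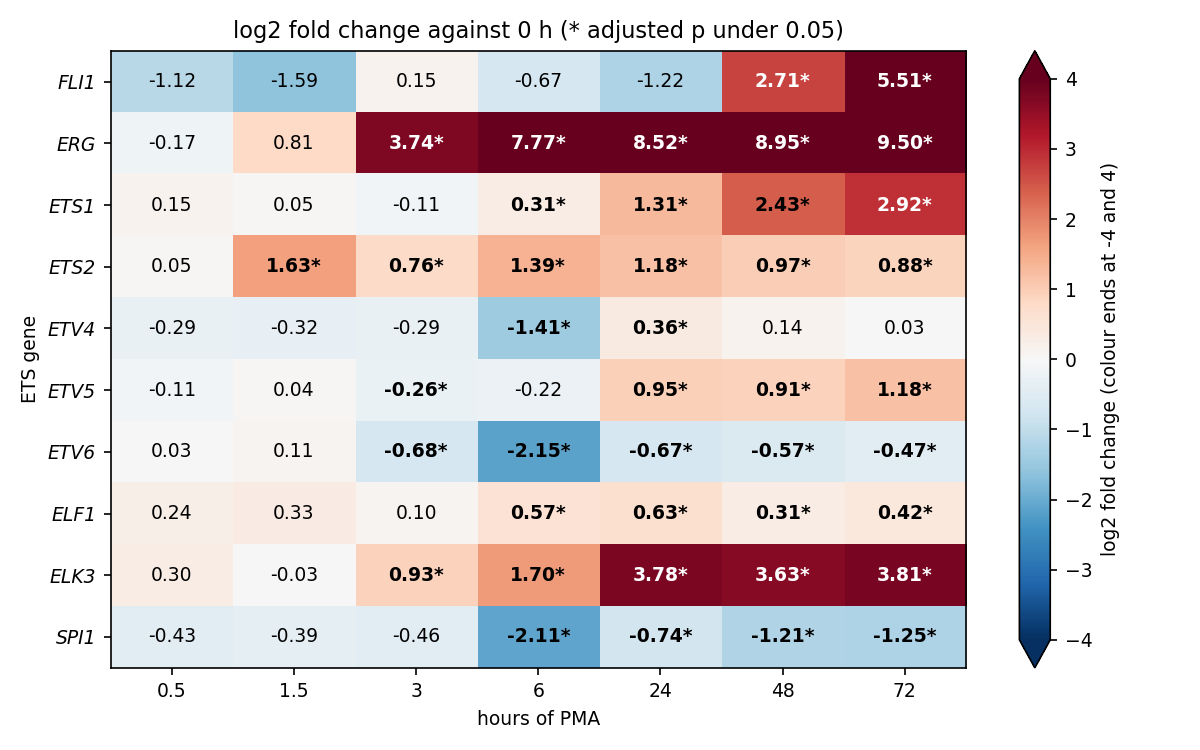
Log2 fold change of each ETS gene (rows) against 0 h at 7 times of PMA treatment (columns), from the edgeR fit; bold values with a star have an adjusted p under 0.05, and the colour scale ends at -4 and 4. ERG reached 9.50 at 72 h, beyond the scale, while ETV6 and SPI1 were lowest at 6 h, at -2.15 and -2.11.

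Scaling the libraries to total counts in place of TMM moved the median of all genes by between -0.35 (6 h) and -0.02 (0.5 h). The split of the members moved with it: 1 higher and 1 lower at 1.5 h, 3 higher and 5 lower at 3 h, and 3 higher and 4 lower at 6 h. At 24, 48 and 72 h the split was 6 higher and 2 lower, in place of 7 and 2. Without 0 h replicate 1, 3 members were called at 0.5 h and 4 at 1.5 h, and without either 72 h library 2 were called at 1.5 h. In bulk RNA a change in the number of cells of a kind and a change in RNA per cell cannot be told apart.

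ERG went from nearly no reads before 3 h to levels that were still highest at 72 h. ERG (ENSG00000157554, 21:38380027-38661780 on the minus strand of GRCh38, overlapping a processed pseudogene on the other strand) had 2 and 0 reads at 0 h, 2 and 0 at 0.5 h, 2 and 2 at 1.5 h, 14 and 17 at 3 h, 180 and 217 at 6 h, 359 and 685 at 24 h, 538 and 659 at 48 h, then 949 and 781 at 72 h in replicates 1 and 2. Every library from 3 h on lay above every library before it. In CPM, which are reads relative to the TMM-scaled library size, the 3 h libraries stood at 0.384 and 0.555, the 6 h libraries at 7.68 and 7.68, and the 72 h libraries at 26.4 and 24.4. Pooled over libraries, ERG at 3 h was 14.7 times its 0 h level with a 95% exact interval of 3.74 to 127, at 6 h 245 times (67.2 to 2026), and at 72 h 811 times (224 to 6702). These intervals cover counting error only and are wide because they rest on 2 reads at 0 h. The fitted log2 fold change was 3.74 at 3 h (SE 0.67, adjusted p = 3.60e-04), 7.77 at 6 h (SE 0.44, adjusted p = 2.98e-09) and 9.50 at 72 h (SE 0.41, adjusted p = 1.76e-10). At 72 h it was 8.61 without 0 h replicate 2. Without 0 h replicate 1 the only control library had 0 ERG reads, and no fold is given. The steps from 1.5 to 3 h (2.93, adjusted p = 1.36e-03) and from 3 to 6 h (4.04, adjusted p = 1.18e-07) do not use the 0 h libraries. From 6 to 24 h ERG rose by a further 0.75 (adjusted p = 8.31e-03), a call lost without 6 h replicate 1 (0.74, adjusted p = 0.053), 6 h replicate 2 (0.74, adjusted p = 0.055) or 24 h replicate 2 (0.55, adjusted p = 0.11). From 24 to 48 h (0.43) and from 48 to 72 h (0.55) it was not called, although the libraries of each pair lay above those of the pair before, from 11.6 and 14.2 CPM at 24 h to 16.4 and 18.4 at 48 h. The change from 24 to 72 h as a whole was not tested.

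The reads of ERG fell on transcripts that begin at the far upstream end of the gene. Of its 16 transcripts in the tables, 7 start between 38660667 and 38661780, 2 near 38584945 and 7 between 38445621 and 38498483. The upstream group held 91.8% and 83.9% of ERG's TPM (level per length) at 6 h and 86.8% and 76.8% at 72 h in replicates 1 and 2. At 48 h its share was 73.0% and 85.5%. The window printed above precedes the start of 1 of these 7, ERG-207, which held 13.4% and 14.4% of ERG's TPM at 6 h and 18.4% and 21.7% at 72 h. The other 6 start upstream of that window. The split among transcripts is an estimate of the quantification program and was not tested.

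FLI1, a close relative of ERG, appeared 2 days later and stayed low. FLI1 (ENSG00000151702, 11:128686535-128813267, plus strand) had between 0 and 5 reads in each of the 12 libraries up to 24 h, then 18 and 26 at 48 h, then 159 and 145 at 72 h. In CPM these were 0.0614 and 0.129 at 0 h, 0.549 and 0.725 at 48 h, then 4.43 and 4.53 at 72 h. The 48 h and 72 h libraries lay above all earlier ones and did not overlap each other. The pooled ratio to 0 h was 6.80 at 48 h (95% exact interval 2.89 to 19.5) and 47.5 at 72 h (21.6 to 130). The fitted log2 fold change was 2.71 at 48 h (SE 0.57, adjusted p = 9.62e-04) and 5.51 at 72 h (SE 0.49, adjusted p = 3.64e-07). Only FLI1 and ETS1 were called between 48 and 72 h, a step at which 1.47% of genes were called, 1.14% higher. FLI1 rose by 2.80 in it (SE 0.37, adjusted p = 1.91e-03). Without 48 h replicate 1 that step was 2.62 with an adjusted p of 0.074.

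Most of the FLI1 signal at 72 h was assigned to a transcript that GENCODE types as a target of nonsense-mediated decay, the pathway that removes messages with a premature stop. FLI1-203 (3130 nt) held 70.4% and 71.6% of FLI1's TPM at 72 h and had no read at any earlier time point. Transcripts of protein-coding type stood at 0.553 and 0.544 TPM at 72 h, and the others at 1.54 and 1.62 TPM. Counting only protein-coding transcripts, the log2 fold change at 72 h was 4.004, that at 48 h was 2.32 with an adjusted p of 0.056, and the step from 48 to 72 h was 1.68 with an adjusted p of 0.35.

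**Figure D2:**
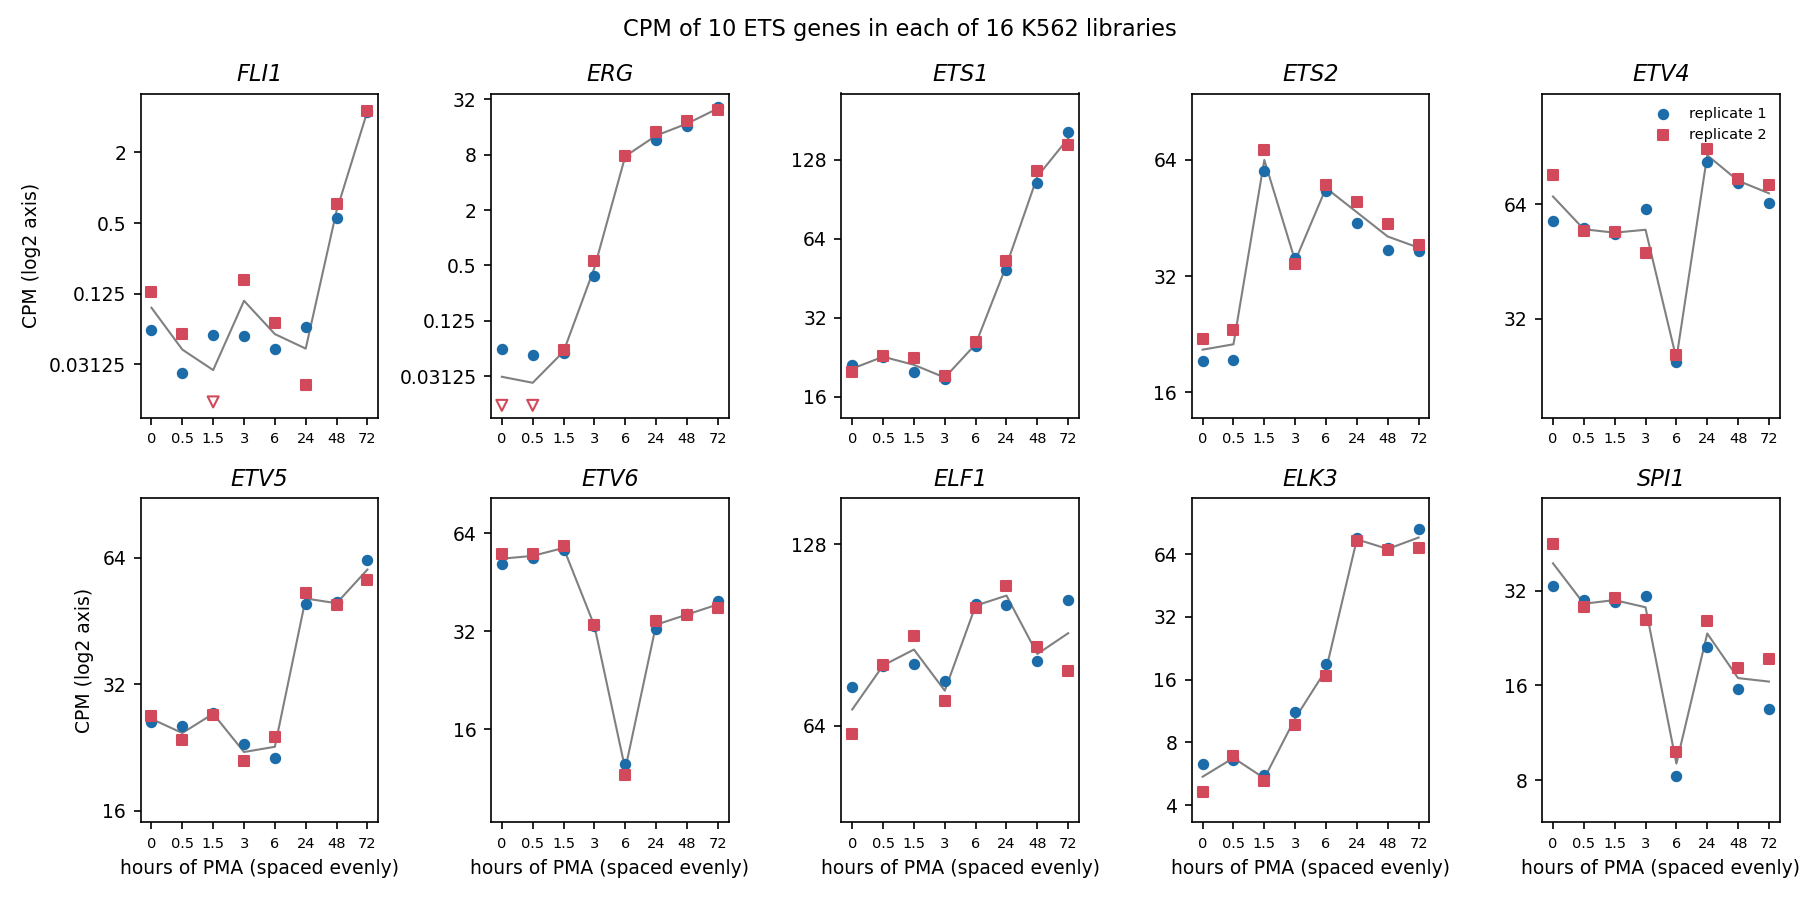
CPM (log2 axis, a separate range in each panel) of the 10 ETS genes in every library by hours of PMA, with the time points spaced evenly; circles are replicate 1, squares replicate 2, the line joins the means of 2 libraries, and open triangles near the axis are libraries with 0 reads. ERG leaves the floor at 3 h and FLI1 at 48 h, while ETV4, ETV6 and SPI1 share a low point at 6 h.

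ETS1, a neighbour of FLI1, rose on the later days and became the most abundant of the 10 per length. ETS1 (ENSG00000134954, 11:128458761-128587558, minus strand) lies 98976 bp from FLI1 with no annotated gene between, and the genes are transcribed away from each other. ETS1 measured 21.1 and 19.9 CPM at 0 h, 22.6 and 22.8 at 0.5 h, 19.8 and 22.5 at 1.5 h, 18.6 and 19.2 at 3 h, 25.0 and 25.8 at 6 h, 48.7 and 52.8 at 24 h, 105 and 116 at 48 h, then 164 and 146 at 72 h. From 6 h on every library lay above every earlier one, and each later pair lay above the pair before it. The log2 fold change against 0 h was 1.31 at 24 h (SE 0.10, adjusted p = 7.09e-08), 2.43 at 48 h (SE 0.10, adjusted p = 1.41e-10) and 2.92 at 72 h (SE 0.10, adjusted p = 2.15e-11). The small rise at 6 h (0.31, adjusted p = 0.016) turned to -0.06 with total-count scaling (adjusted p = 0.61), and it was lost without 0 h replicate 2 (0.26, adjusted p = 0.080), 6 h replicate 1 (0.35, adjusted p = 0.055) or 6 h replicate 2 (0.30, adjusted p = 0.099). The step from 48 to 72 h (0.48, adjusted p = 0.023) was lost without 48 h replicate 1 (0.41, adjusted p = 0.33), 48 h replicate 2 (0.56, adjusted p = 0.12), 72 h replicate 1 (0.39, adjusted p = 0.15) or either 6 h library (0.50, adjusted p = 0.054).

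The rise of ETS1 was in its protein-coding transcripts. At 0 h, 76.3% and 76.9% of its TPM lay on ETS1-205, a 628 nt transcript of the processed (non-coding) type that spans 11:128571808-128587523 at the 5′ end of the gene. Its level was 20.7 and 20.6 TPM at 0 h and 16.4 and 22.8 TPM at 72 h, so the libraries overlapped. Transcripts of protein-coding type went from 6.43 and 6.01 TPM at 0 h, and 6.97 and 6.07 at 6 h, to 17.2 and 17.9 at 24 h, 41.7 and 43.3 at 48 h, then 57.7 and 57.0 at 72 h. The mean of protein-coding TPM at 72 h was 9.22 times that at 0 h, and the mean of the other types 1.13 times. Because a short transcript gives few reads per molecule, the fold change of the whole gene depends on the unit. Counts derived from TPM gave a log2 fold change of 1.56 at 72 h against 0 h, reads of protein-coding transcripts alone gave 3.29, and all reads gave 2.92. With counts derived from TPM, the step from 6 to 24 h was 0.02 (adjusted p = 0.93), against 1.00 (adjusted p = 1.49e-06) in reads, and the step from 3 to 6 h was 0.18 (adjusted p = 0.32), against 0.42 (adjusted p = 3.51e-03).

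**Figure D3:**
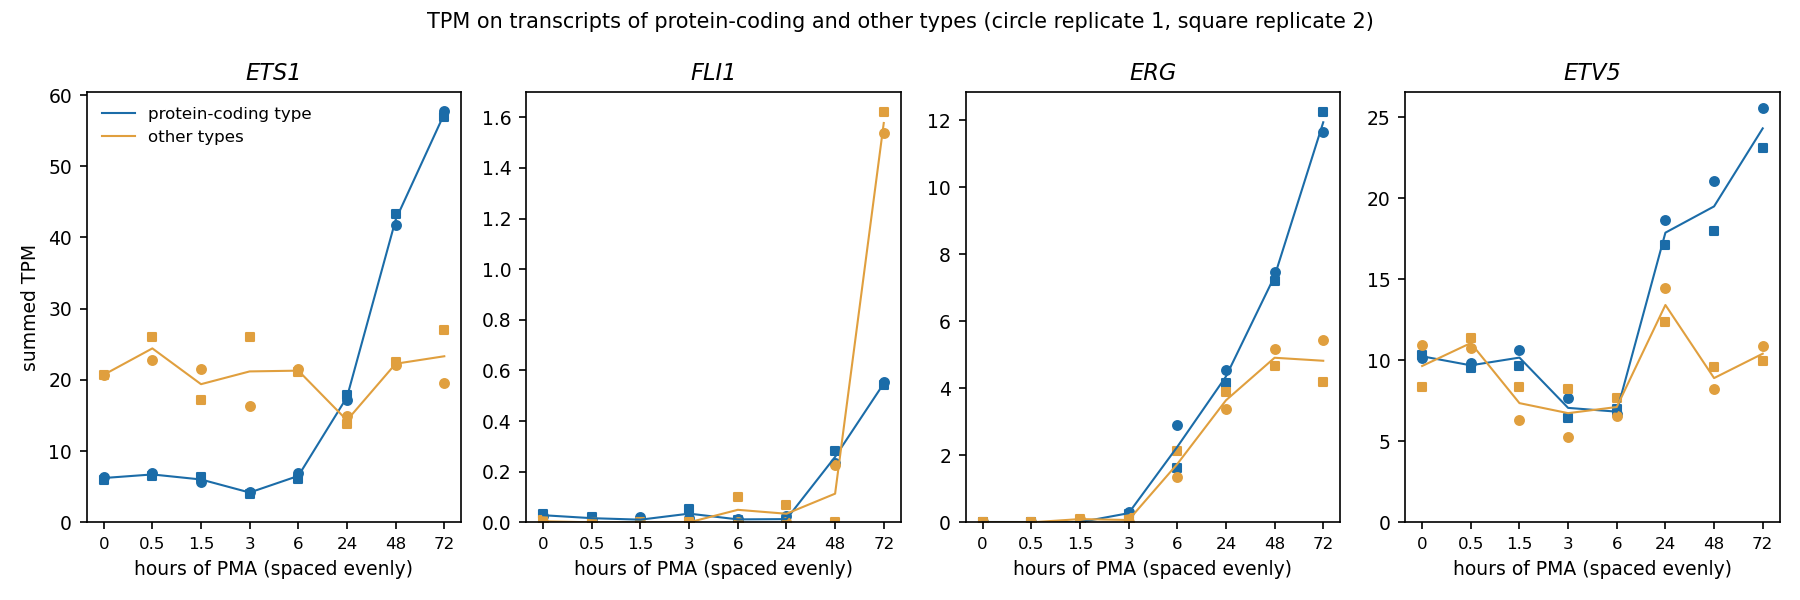
Summed TPM of protein-coding transcripts (blue) and of all other transcript types (orange) for ETS1, FLI1, ERG and ETV5 by hours of PMA, with time points spaced evenly; circles are replicate 1, squares replicate 2 and lines join the means of 2 libraries. In ETS1 the protein-coding TPM climbs from 6.22 to 57.4 on average while the other types go from 20.7 to 23.3, and in FLI1 the other types exceed the protein-coding ones at 72 h.

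ETS2 was the earliest member called with all 16 libraries. ETS2 (ENSG00000157557, 21:38805307-38824955, plus strand), the closest relative of ETS1, lies 143526 bp from ERG, with 1 non-coding gene between. Its libraries held 19.3 and 22.0 CPM at 0 h, 19.4 and 23.2 at 0.5 h, 60.0 and 67.7 at 1.5 h, 35.6 and 34.4 at 3 h, 53.1 and 54.9 at 6 h, 43.8 and 49.7 at 24 h, 37.4 and 43.6 at 48 h, then 37.2 and 38.6 at 72 h. The course had a first peak at 1.5 h, a trough at 3 h that stayed above 0 h, and a second, slowly declining phase from 6 h. The log2 fold change was 1.63 at 1.5 h (SE 0.12, adjusted p = 9.50e-07), 0.76 at 3 h, 1.39 at 6 h and 0.88 at 72 h (SE 0.12, adjusted p = 2.28e-05). The fall from 1.5 to 3 h was -0.87 (adjusted p = 7.86e-05) and the rise from 3 to 6 h 0.63 (adjusted p = 6.37e-04). At 72 h ETS2 was below its 6 h level by 0.51 on the log2 scale (adjusted p = 1.90e-03), the only member for which 72 h was lower than 6 h by the test (25.6% of genes lower). None of these calls was lost in any alternative.

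ELK3, a ternary complex factor that binds DNA beside serum response factor and represses until phosphorylated by ERK, rose in steps to a plateau. ELK3 (ENSG00000111145, 12:96194382-96269835, plus strand) stood at 6.32 and 4.63 CPM at 0 h, 6.60 and 6.88 at 0.5 h, 5.57 and 5.20 at 1.5 h, 11.2 and 9.65 at 3 h, 19.1 and 16.6 at 6 h, 76.4 and 74.3 at 24 h, 68.5 and 67.0 at 48 h, then 84.9 and 68.8 at 72 h. The 3 h, 6 h and 24 h pairs each lay above the pair before, and the last 3 pairs covered one range. The log2 fold change against 0 h was 0.93 at 3 h (SE 0.15, adjusted p = 2.25e-04), 1.70 at 6 h and 3.78 at 24 h (SE 0.15, adjusted p = 1.33e-10), and 3.81 at 72 h. The step from 6 to 24 h was 2.08 (adjusted p = 4.83e-08), and the steps after it were not called. With counts derived from TPM the change at 72 h was 3.22.

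ETV4 and ETV5, the PEA3 members, differed in CPM at 6 h, when only ETV4 was called lower than at 0 h. ETV4 (ENSG00000175832, 17:43527844-43579620, minus strand, overlapping DHX8 on the other strand) measured 57.8 and 76.3 CPM at 0 h, 55.5 and 54.5 at 0.5 h, 53.5 and 54.2 at 1.5 h, 62.1 and 47.6 at 3 h, 24.6 and 25.7 at 6 h, 82.8 and 89.3 at 24 h, 72.9 and 74.7 at 48 h, then 64.6 and 72.1 at 72 h. The 6 h pair was the lowest of all and the 24 h pair the highest. ETV4 fell by 1.41 on the log2 scale at 6 h (SE 0.14, adjusted p = 9.50e-07) and rose by 1.77 from 6 to 24 h (SE 0.14, adjusted p = 2.05e-07). The change at 24 h against 0 h was 0.36 (adjusted p = 0.032). That call was lost without 0 h replicate 1 (0.18, adjusted p = 0.27), 24 h replicate 1 (0.42, adjusted p = 0.050) or 24 h replicate 2 (0.28, adjusted p = 0.18). At 72 h ETV4 was at 0.03 with an adjusted p of 0.87, and the sign differed between settings.

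ETV5 (ENSG00000244405, 3:186046308-186110318, minus strand, overlapping DGKG on the same strand) measured 26.1 and 26.9 CPM at 0 h, between 21.0 and 27.4 CPM in the 8 libraries from 0.5 to 6 h, and then 49.7 and 52.7 at 24 h, 50.3 and 49.5 at 48 h, then 63.4 and 56.6 at 72 h. The late libraries lay apart from all the early ones. Its log2 fold change was 0.95 at 24 h (SE 0.10, adjusted p = 1.34e-06) and 1.18 at 72 h (SE 0.10, adjusted p = 1.37e-07), and the step from 6 to 24 h was 1.17 (adjusted p = 3.16e-07). At 6 h it was -0.22 with an adjusted p of 0.069. The lower level at 3 h (-0.26 against 0 h, adjusted p = 0.043) was called under 8 of 26 alternatives, and -0.30 against 1.5 h (adjusted p = 0.034) under 17 of 26. Leaving out 3 h replicate 2 gave -0.19 (adjusted p = 0.21) and -0.23 (adjusted p = 0.17). On the level per length, protein-coding ETV5 transcripts rose from 10.2 to 24.3 TPM on average between 0 and 72 h, 2.37 times, and the other types stood at 9.64 and 10.4 TPM. At 3 h the mean TPM of both PEA3 members was below that at 0 h: 36.6 against 57.4 for ETV4 and 13.8 against 19.9 for ETV5. At 6 h the means were 20.8 for ETV4 and 13.9 for ETV5, and these levels carry no test.

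ETV6 and SPI1 shared the low point of ETV4 at 6 h but stayed below their starting level. ETV6 (ENSG00000139083, 12:11649854-11895402, plus strand) held 51.5 and 55.3 CPM at 0 h, 53.8 and 55.1 at 0.5 h, 56.7 and 58.6 at 1.5 h, 33.1 and 33.4 at 3 h, 12.5 and 11.6 at 6 h, 32.6 and 34.4 at 24 h, 36.0 and 35.9 at 48 h, then 39.6 and 37.6 at 72 h. All libraries from 3 h on lay below all earlier ones, and the 6 h pair lay below every other. The log2 fold change was -0.68 at 3 h (SE 0.08, adjusted p = 1.33e-05), -2.15 at 6 h (SE 0.09, adjusted p = 1.33e-10), -0.67 at 24 h and -0.47 at 72 h (SE 0.08, adjusted p = 2.01e-04). ETV6 rose by 1.48 from 6 to 24 h (adjusted p = 1.40e-08). Each of these calls held in every alternative run.

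SPI1 (ENSG00000066336, 11:47354860-47378576, minus strand) measured 33.2 and 44.9 CPM at 0 h, 29.8 and 28.3 at 0.5 h, 29.4 and 30.3 at 1.5 h, 30.8 and 25.8 at 3 h, 8.24 and 9.84 at 6 h, 21.1 and 25.6 at 24 h, 15.6 and 18.2 at 48 h, then 13.5 and 19.4 at 72 h. Every treated library lay below both 0 h libraries. It fell by 2.11 on the log2 scale at 6 h (SE 0.19, adjusted p = 5.09e-07), rose by 1.37 from 6 to 24 h (adjusted p = 4.37e-05), and stood at -0.74 at 24 h (adjusted p = 3.27e-03) and -1.25 at 72 h (SE 0.18, adjusted p = 5.18e-05). At 3 h it was at -0.46 with an adjusted p of 0.054, and 10 of 26 alternatives called it. Among them, leaving out 0 h replicate 1 gave -0.66 (adjusted p = 0.014), and removing the GC trend of each library gave -0.30 (adjusted p = 9.26e-03). SPI1 has the highest GC content of the 10 genes, at 64.8%.

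ELF1, a broadly expressed factor of blood cells, moved least. ELF1 (ENSG00000120690, 13:40932028-41061440, minus strand, overlapping WBP4 on the other strand and a processed pseudogene on its own) ranged from 62.0 CPM in 0 h replicate 2 to 109 in 24 h replicate 2. Its libraries held 74.2 and 62.0 CPM at 0 h, 102 and 100.4 at 6 h, 101.3 and 109 at 24 h, 82.0 and 86.3 at 48 h, then 103 and 78.8 at 72 h. The log2 fold change was 0.57 at 6 h (SE 0.12, adjusted p = 1.16e-03), 0.63 at 24 h (SE 0.12, adjusted p = 6.07e-04) and 0.42 at 72 h (adjusted p = 9.25e-03). The 72 h call was lost without 0 h replicate 2 (0.30, adjusted p = 0.091) or 72 h replicate 1 (0.21, adjusted p = 0.15). The 48 h call (0.31, adjusted p = 0.049) held in 10 of 26 alternatives and was 0.18 (adjusted p = 0.30) without 0 h replicate 2. Total-count scaling lowered the 6 h change to 0.20 (adjusted p = 0.13). For ETV4, ETV5, ELF1 and ERG, the use of strand in the counting is not given in the sources used here, and reads of an overlapping gene cannot be told apart from theirs where exons coincide.

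Between neighbouring time points most steps fell in 2 intervals. From 3 to 6 h 8 members were called (41.2% of genes, 19.0% higher and 22.1% lower), 5 higher (ERG, ETS1, ETS2, ELF1 and ELK3) and 3 lower (ETV4, ETV6 and SPI1). From 6 to 24 h 7 were called, all higher (56.6% of genes called, 30.8% higher): ERG, ETS1, ETV4, ETV5, ETV6, ELK3 and SPI1. ETV4, ETV6 and SPI1 thus fell in the former and rose in the latter. Earlier, 1 member was called from 0.5 to 1.5 h (ETS2, higher; 5.77% of genes called, 4.11% higher) and 5 from 1.5 to 3 h (25.1% of genes, 13.0% higher and 12.1% lower), with ERG and ELK3 higher and ETS2, ETV5 and ETV6 lower, a split that became 2 higher and 5 lower with total-count scaling. Later, FLI1 and ETS1 were called from 24 to 48 h (15.0% of genes, 8.88% higher) and again from 48 to 72 h. Against 6 h, 8 members were higher and 1 lower at 72 h (57.2% of genes, 31.6% higher and 25.6% lower). The 8 included SPI1 (0.86, adjusted p = 1.85e-03), which was lower than at 0 h.

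Per length, the order of the members changed between 0 and 72 h. At 0 h ETV4 stood highest at 57.4 ± 6.98 TPM (SD, n = 2), followed by SPI1 at 49.9 ± 6.48, whose libraries overlapped those of ETV4, then ELF1 at 40.5 ± 5.92 and ETS1 at 26.9 ± 0.287. ETV5 (19.9 TPM) and ETV6 (19.2) overlapped, ETS2 (13.7) and ELK3 (3.64) followed, and FLI1 and ERG were under 0.05 TPM in every 0 h library. At 6 h ELF1 led at 47.7 ± 2.71 TPM, ETS2 (28.1) and ETS1 (27.8) overlapped, SPI1 was at 9.17 ± 0.416, and ERG (3.99) overlapped ETV6 (3.92). At 72 h ETS1 led at 80.7 ± 4.71 TPM, apart from ETV4 at 65.4 ± 9.90, whose libraries overlapped those of ELF1 at 58.1 ± 2.77. ETV5 (34.7) and ELK3 (34.4) overlapped, as did SPI1 (22.1) and ETS2 (21.6), and ERG (16.8) and ETV6 (15.5), with FLI1 last at 2.13 ± 0.0517. ERG at 72 h was therefore at the level of ETV6, and FLI1 was the lowest of the 10 at both 6 and 72 h. The lead of ETS1 includes its non-coding transcript: its protein-coding transcripts alone measured 57.4 TPM, beside 52.8 for those of ETV4 and 57.6 for those of ELF1.

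**Figure D4:**
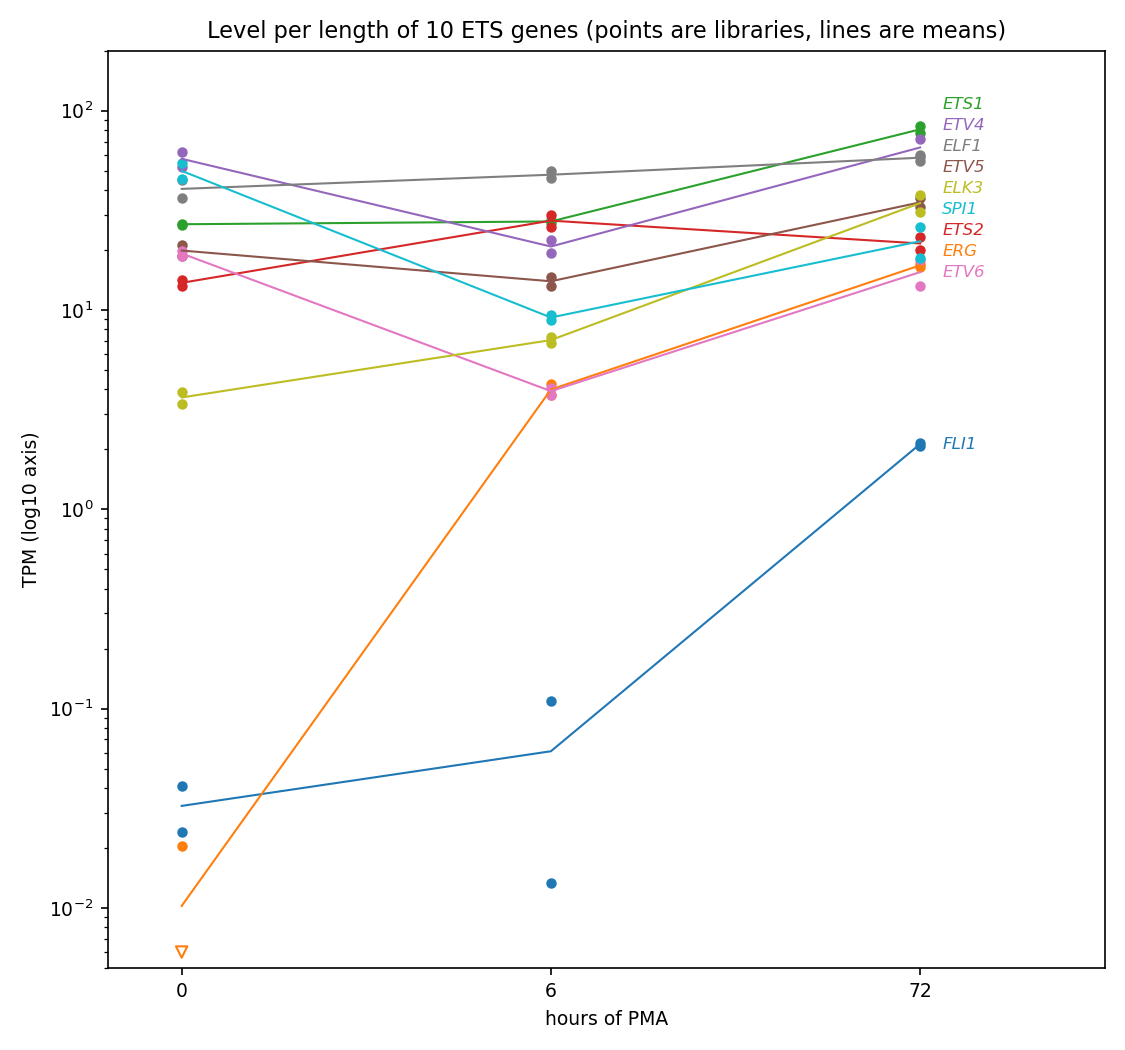
TPM (log10 axis) of the 10 ETS genes at 0, 6 and 72 h of PMA; points are libraries, lines join the means of 2 libraries, and the open triangle is the 0 h library in which ERG had no read. Labels at the right are spread apart to be legible. ETS1 is the highest gene at 72 h, ERG climbs from the floor to 16.8 TPM, and FLI1 ends at 2.13 TPM.

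The genes most like each member were found by the correlation of log2 CPM over the 16 libraries among 11280 genes whose mean reached 5 CPM. The libraries share their time points, so these values describe a common course and carry no test. ERG was most like RAB7B (Pearson r = 0.99) and SVIL (0.99), ETS1 like DAB2 (0.99) and SYTL5 (0.99), ELK3 like SVIP (0.99) and NT5E (0.99), and FLI1 like SCUBE3 (0.98) and PTPN14 (0.97). ETV4 was most like GMPPA and GYS1 (both 0.99), ETV5 like CREB3L2 and ANKRD33B (both 0.99), ETV6 like SLC39A14 and RCSD1 (both 0.99), and SPI1 like NABP2 (0.98) and NMRAL1 (0.97). ELF1 (TBC1D23 and TDP2, both 0.96) and ETS2 had looser companions. The nearest to ETS2 were ZC3H12A (0.87) and NR4A3 (0.87), both known as immediate-early genes. Among the members themselves, the pairs of highest r were ERG and ELK3 (0.95), ETS1 and ETV5 (0.93) and ETS1 and ELK3 (0.89), while FLI1 and ETS1 had 0.85 and FLI1 and ERG 0.59.

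Of the 18 other ETS genes, 15 were tested; ETV7, SPIC and SPDEF had at most 11 reads in any library. At 6 h 9 were higher and 2 lower than at 0 h, and at 72 h 7 were higher and 3 lower, beside 57.2% and 58.6% of all genes called at these times. The medians were 0.91 and 0.14, beside 0.00 and -0.03 for all genes. The ternary complex factors ELK1 and ELK4, relatives of ELK3, were higher at 6 h (1.39 and 1.20) and at 72 h (1.91, SE 0.11, and 0.82, SE 0.12). ETV1, the other PEA3 member, was lower at 3 h (-1.02) and at 6 h (-0.65) and higher at 24 h (0.56, adjusted p = 1.77e-03), a low-then-high course like that of ETV4 but with its low at 3 h. The repressors ETV3 (1.32 at 1.5 h and 1.76 at 72 h) and ERF (1.45 at 3 h and 0.60 at 72 h) were higher. ETV3L had 0 reads in both 0 h libraries and a mean of 10.9 CPM at 72 h, and EHF went from 0.126 to 4.21 CPM. FEV fell from 2.57 to 0.136 CPM.

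Genes tied to ETS activity were followed by lists. The 8 target genes of ternary complex factors and SRF were all higher at each time point from 0.5 h, with medians of 3.37 at 0.5 h, when 0.171% of all genes were called, and 5.20 at 1.5 h. EGR1, the most abundant of them, was at a log2 fold change of 3.20 at 0.5 h, and EGR3 went from a mean of 0.205 to 28.5 CPM. This came before the call of ETS2 at 1.5 h and that of ELK3 at 3 h. Of the 7 ERK-dependent genes that CIC represses, 1 was higher at 0.5 h, 4 at 1.5 h and all 7 at 6 h (9.05% of all genes were higher at 1.5 h and 27.8% at 6 h). At 6 h the median was 2.11 and ETV4, another CIC target, was at -1.41. DUSP5, an ERK phosphatase, reached 7.44 at 72 h. Among 9 controls of ETS proteins, 4 were higher and 2 lower at 72 h (median 0.23), beside 58.6% of all genes called. ATXN1, a partner of CIC, rose by 2.34 at 72 h, and MAPK3, a kinase of the ERK pathway, was lower (-0.43). DET1, part of the ligase that degrades PEA3 factors, was lower from 1.5 h and at -1.42 at 6 h.

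Of 14 partners of ETS factors on DNA, 5 were higher and 6 lower at 6 h, and 4 were higher and 3 lower at 72 h (median 0.07), beside 57.2% and 58.6% of all genes called. GATA2, a partner of ERG and FLI1, rose by 2.38 at 3 h (SE 0.16, adjusted p = 7.5e-08) and was at 1.25 at 72 h. At 3 h 4 of the partners were higher and 8 lower (median -0.64), beside 42.0% of all genes called. ERG was also called higher at 3 h, and a link to GATA2 was not tested. RUNX1 was lower at 3 h (-1.11), at 0.05 and not called at 6 h, and lower again at 24 h (-0.68) and 72 h (-0.61). LDB1, which bridges GATA and TAL1 complexes, had its lowest level at 6 h (-2.58), as ETV4, ETV6 and SPI1 did.

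The markers of the labelled cells were checked beside these changes, at 72 h, when 31.7% of all genes were higher and 26.9% lower. Of 10 erythroid and K562 genes none was higher and 6 were lower at 72 h (median -1.47), and their summed TPM was 5058 to 5465 at 0 h and 3404 to 4650 at 72 h. Of 14 megakaryocyte genes 9 were tested and 7 were higher at 72 h (median 2.66), with sums of 57.6 to 93.8 TPM at 0 h and 1793 to 1807 TPM at 72 h. THBS1 accounted for most of this list, with means of 3.53 CPM untreated and 4593 CPM at 72 h, while GP1BA, GP9, PF4 and SELP had at most 5 reads in any library. Of 13 monocyte and granulocyte genes 3 were higher and 4 lower at 72 h (median -0.26), with sums of 254 to 297 TPM at 0 h and 372 to 484 TPM at 72 h. The 3 higher genes, MPO, CSF1R and CD68, are named because they went against most of the list's calls. CD68 had the highest mean TPM of the list, and CD14 had at most 18 reads. MPO, with between 0 and 1346 reads per library, rose by 8.53 at 6 h. SPI1, known to act on it, was at -2.11 at 6 h, and a link between their RNA levels was not tested. The 3 endothelial genes tested, of 4, were all higher at 72 h, with sums of 6.64 to 6.74 TPM at 0 h and 14.2 to 18.3 TPM at 72 h. CDH5 went from a mean of 0.0153 to 1.42 CPM over the course, and PECAM1 from 19.3 to 43.8 CPM. Of 6 lymphoid genes 3 were tested and 2 were higher, with sums of 24.3 to 36.1 TPM at 0 h and 60.3 to 75.5 TPM at 72 h, and CD2 and MS4A1 had at most 2 reads. The part of these other cell types or states in the ETS changes was not tested.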

How the data were processed

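RNA sequencing of K562 cells was analysed in 16 libraries, 2 at each of 8 times of PMA treatment. Per the file headers, the authors deposited an estimated count of reads and a TPM value for each of 177456 Ensembl transcripts, with the column names of Salmon. The submitters' processing notes name Salmon without a version, Trim Galore 0.4.3, HISAT2 2.1.0, SAMtools 1.9, deepTools 3.0.1, R 3.3.1, DESeq2 and DESeq 1.33.5, and the builds hg19 and hg38, with no role for each. Bias correction and strand setting are not given in the sources used here.

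Transcripts were assigned to genes by Ensembl identifier without version in GENCODE 29 (GRCh38). 167027 (94.1%) matched, in 35052 genes; the reads on unmatched transcripts, 3.01 to 3.75% per library, were not used. Estimated counts were summed per gene and rounded. Genes were fitted in edgeR 4.0.16 (R 4.3.3) with TMM factors, filterByExpr (17559 genes kept) and the quasi-likelihood F-test over 8 groups. The fit had 8 residual degrees of freedom and 5.28 from the prior, at a common BCV of 0.123. A gene was called at a Benjamini-Hochberg adjusted p under 0.05 over all genes tested. The comparisons were 7 times against 0 h, 6 neighbouring steps, 72 h against 6 h, and any difference over the course. Levels between genes were compared in deposited TPM summed per gene. The 3-read floor was 0.0623 to 0.128 CPM; intervals of pooled ratios are exact conditional 95% intervals. Intervals and floors cover counting error only. The fit was checked on simulated counts.

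The members and lists were chosen with earlier results of these data known. All members were named, with other ETS genes of at least 5 TPM or a called log2 change over 1 at 72 h, the most changed and most abundant gene of each list, and any called against its list at 72 h; for each member, the 2 genes of highest correlation. The alternatives were DESeq2 1.42.0 and its size factors, total-count scaling, no or a stricter low-count filter (10 reads in every library), counts derived from TPM, only the 2 groups compared, a replicate block, removal of the GC trend, an adjusted p under 0.01, each library left out, and, chosen after seeing the data, only protein-coding transcripts.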

Additional observations from a re-analysis of the deposited data

How the results depend on the processing

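Of 140 combinations of a member and a comparison, 75 were called. Of these, 61 were called under every alternative run, up to 26 each, and 14 were lost under at least 1; 74 kept their sign throughout, the exception being ETS1 at 6 h against 0 h, at -0.058 with total-count scaling. Of the 65 not called, 23 were called under at least 1 alternative. ETV4 at 72 h against 0 h, not called at 0.03, was -0.13 with total-count scaling, -0.0072 with only the 2 groups compared, -0.061 with protein-coding transcripts and -0.16 to 0.24 over the libraries left out, both ends from leaving out a 0 h library. The number of members called at 1.5 h against 0 h was 2, in place of 1, with total-count scaling, no low-count filter or counts derived from TPM. At 3 h against 0 h it was 8, in place of 5, with total-count scaling or the GC trend removed. From 0.5 to 1.5 h it was 2, in place of 1, with counts derived from TPM. From 24 to 48 h it was 1, in place of 2, with the stricter filter, which leaves out FLI1 and ERG, and 5 with only the 2 groups compared or the GC trend removed. From 48 to 72 h it was 1, in place of 2, with the stricter filter, the 2 groups compared or an adjusted p under 0.01, and 0 with counts derived from TPM or protein-coding transcripts. The cause was not tested. Leaving out each library gave 0 to 3 members at 0.5 h, 1 to 4 at 1.5 h and 0 to 2 from 48 to 72 h. Where this left 1 library at a time point, it was assumed to vary like the others. Replicate numbers did not pair the libraries by gene levels (28 correlations of deviations between -0.118 and 0.211), although the implied fragment lengths differed between the replicate sets. With the replicate number as a block (replicate block), members called against 0 h numbered 1 (1.5 h), 6 (3 h), 8 (6 h) and 9 (each later time), all 75 calls held and 1 was added. Rescaling TPM to matched transcripts moved ETS1 at 0 h to 27.9 TPM and, at 72 h, FLI1 to 2.20 and ERG to 17.3. With few reads at 0 h, depth limits the folds of FLI1 and ERG.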
